A study of Homo sapiens with 24 samples.

Results

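The G2/M genes of the Seurat cell cycle list were followed in 2 metastatic clear cell renal cell carcinoma (ccRCC) lines that carried an RNAi construct against PAX8 or a non-targeting guide RNA. The list holds genes whose transcripts peak in G2 phase and mitosis and is used to score the cell cycle in single cells. Its 52 members that match the gene symbols of the files were taken, of 26475 genes measured. All 52 passed the filter on low counts in each of the 8 comparisons.

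Cells duplicate their DNA in S phase, pass through G2 and divide in mitosis. Cyclin B with CDK1 drives entry, condensin and topoisomerase II compact the chromosomes, kinetochores tie them to the spindle, a checkpoint holds back the anaphase-promoting complex (APC/C) until all are attached, and a contractile ring then splits the cell. Many of these genes share promoter elements read by NF-Y (CCAAT) and by the MuvB complex with B-MYB and FOXM1 (the cell cycle homology region, CHR), and their summed transcript level is commonly read as a sign of proliferation.

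RNA-seq was performed on 786-M1A and OS-LM1 cells, sublines of 786-O and of OS-RC2 selected for metastasis, both with VHL mutations and a luciferase transgene. PAX8, a renal lineage transcription factor, was depleted with shPAX8-1 or shPAX8-2, and the remaining libraries of each line carried sgNTC18. Each of the 6 groups had 4 replicates, which gives 24 libraries. All cells were grown in RPMI with 10% serum and harvested at 80% confluence. The methods describe doxycycline-inducible RNAi plasmids, and the vector and induction time behind these libraries were not given in the sources used here. Because sgNTC18 is a guide RNA and not an RNAi construct, PAX8 depletion and the type of construct cannot be told apart in a comparison with sgNTC18. The comparison of shPAX8-1 with shPAX8-2 within a line does not use these controls and is given first. Nothing states that replicates were separate cultures, so the p-values measure the spread between these libraries, which may be technical.

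The guides of the RNAi constructs are shown because nearly every comparison below sets them against each other or against sgNTC18. Capitals mark the seed, bases 2 to 8 from the 5′ end. The sequences come from the plasmid oligonucleotides of the study.
shPAX8-1: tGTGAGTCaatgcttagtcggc
shPAX8-2: tAGAGTTGtgttaataatggag
The exact complement of the shPAX8-1 guide was found in 10 of 14 annotated PAX8 transcripts, and that of shPAX8-2 in 7 of 14. CPM, the unit of library values below, is a count relative to the TMM-scaled total of its library. In 786-M1A, PAX8 was at 22.9, 21.9, 15.2 and 14.8 CPM with shPAX8-1, at 41.4, 45.5, 42.6 and 39.99 CPM with shPAX8-2, and at 291.6 to 393 CPM with sgNTC18. In OS-LM1 it was at 85.6, 78.4, 59.9 and 89.2 CPM with shPAX8-1, at 76.2, 63.8, 97.0 and 79.9 CPM with shPAX8-2, and at 244.8 to 279 CPM with sgNTC18. Every shPAX8 library was thus below every sgNTC18 library of its line. The log2 fold change of PAX8 against sgNTC18 was -4.16 ± 0.16 (SE) for shPAX8-1 and -2.99 ± 0.15 for shPAX8-2 in 786-M1A, and -1.76 ± 0.12 and -1.71 ± 0.12 in OS-LM1. Between the constructs PAX8 was lower with shPAX8-1 in 786-M1A (-1.18 ± 0.16, edgeR adjusted p = 5.5e-04), whereas in OS-LM1 the difference was -0.01 ± 0.14 (adjusted p = 0.97).

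The libraries held between 11634419 and 52059375 expected counts. Leukocyte markers summed to at most 6.72 CPM in any library and endothelial markers to at most 1.78 CPM, while 7 or 8 of 8 renal epithelial markers, PAX8 included, were at 1 CPM or more in every group. Of 5 fibroblast markers, COL1A1, LUM and PDGFRB reached 1 CPM in 786-M1A, where the list summed to 203 to 425 CPM with shPAX8-1, 671 to 891 CPM with shPAX8-2 and 535 to 726 CPM with sgNTC18. In OS-LM1 it summed to 91.7 to 113 CPM, 101 to 207 CPM and 14.9 to 20.1 CPM. The part of these genes in the results was not tested. In 786-M1A with shPAX8-1, replicates 1 and 2 stood apart from replicates 3 and 4: counts differed by a chi-square of 15.1 and 3.88 per gene within these pairs and of 48.3 to 83.8 between them, where sampling noise alone gives about 1. The counts of members called that rest on this group, and the values of the gene shown by library in each role group, are therefore also given without either pair.

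Promoter sequences are shown for 6 members of mitotic entry, checkpoint, cytokinesis and chromatin whose shPAX8-1 level in 786-M1A exceeded that of shPAX8-2, so that a reader can see the elements these genes share, as the 120 bases before the RefSeq start (GRCh38.p14, printed in the direction of transcription), with TTTGAA, the core of the CHR, and CCAAT in capitals on either strand (TTCAAA and ATTGG on the other).
CCNB2, chr15:59105026-59105145, + strand: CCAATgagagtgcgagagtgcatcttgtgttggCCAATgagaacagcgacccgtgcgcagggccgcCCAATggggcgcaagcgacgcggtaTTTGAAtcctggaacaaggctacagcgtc
CKS2, chr9:89311075-89311194, + strand: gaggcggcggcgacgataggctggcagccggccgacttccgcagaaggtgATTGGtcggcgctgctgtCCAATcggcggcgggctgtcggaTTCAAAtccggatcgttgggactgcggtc
CDC20, chr1:43358861-43358980, + strand: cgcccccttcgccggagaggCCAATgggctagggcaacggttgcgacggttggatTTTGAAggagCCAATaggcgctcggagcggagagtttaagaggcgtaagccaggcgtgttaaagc
KIF23, chr15:69414229-69414348, + strand: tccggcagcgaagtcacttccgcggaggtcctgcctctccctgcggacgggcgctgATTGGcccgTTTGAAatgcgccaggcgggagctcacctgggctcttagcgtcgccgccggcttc
ANLN, chr7:36389742-36389861, + strand: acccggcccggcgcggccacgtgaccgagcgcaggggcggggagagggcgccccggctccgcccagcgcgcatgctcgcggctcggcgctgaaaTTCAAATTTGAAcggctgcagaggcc
TOP2A, chr17:40417897-40418016, - strand: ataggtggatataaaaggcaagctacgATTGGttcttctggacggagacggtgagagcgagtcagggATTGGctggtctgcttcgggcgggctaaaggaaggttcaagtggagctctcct
CCNB2 held TTTGAA 29 bases before its start with CCAAT at 54, 87 and 120 bases before it, and CKS2 held the same element at 29 bases with a CCAAT at 52 and 70 bases. ANLN had TTTGAA on each strand, 20 and 26 bases before the start, and no CCAAT in this stretch. TOP2A had CCAAT at 53 and 93 bases and no TTTGAA.

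Of the 52 members, 44 had at least 1 promoter window in RefSeq (250 before the start and 50 after it), 55 windows in all. TTTGAA lay in 63.6% of these windows against 15.2% of all 35116 windows, and CCAAT in 67.3% against 34.6%, on either strand and counted without regard to overlap. Both were present in 49.1% against 5.9%. Within the 60 bases before the start, TTTGAA was found in 27.3% of members' windows against 2.71% of all. The 32 members with TTTGAA had a median log2 fold change between the constructs of 0.59 in 786-M1A and -0.32 in OS-LM1, and the 12 without it 0.18 and -0.38. A match is a description of the letters and was not tested for a link with expression.

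Per length, the members spanned a wide range in control cells. In the sgNTC18 libraries of OS-LM1 the median TPM ran from 3.41 for CENPE, a kinetochore motor, to 1090.2 for UBE2C, the ubiquitin-conjugating enzyme of the APC/C. In those of 786-M1A it ran from 3.18 for G2E3 to 1193 for UBE2C. TUBB4B, a beta-tubulin, CKS2 and CKS1B, small subunits of CDK complexes, and CDC20, the activator of the APC/C, followed UBE2C in both lines, with TPM of 511, 491, 412 and 236 in OS-LM1 and 1153, 641, 468 and 346 in 786-M1A.

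The summed counts of the 52 genes differed between groups and lines in opposite ways. With sgNTC18 they took 75.8 to 81.8 of every 10000 counts in 786-M1A and 66.9 to 70.1 in OS-LM1. In 786-M1A they took 67.6, 80.9, 90.8 and 90.9 per 10000 with shPAX8-1 against 54.9, 55.2, 64.8 and 59.5 with shPAX8-2. In OS-LM1 they took 26.1, 26.1, 28.5 and 26.1 with shPAX8-1 against 30.7, 33.2, 28.2 and 30.2 with shPAX8-2. Every shPAX8-1 library of 786-M1A was above every shPAX8-2 library, the 2 groups of OS-LM1 overlapped by a single library each, and every shPAX8 library of OS-LM1 lay far below its controls. In bulk RNA, fewer cells in G2 and mitosis and less RNA of these genes per cell cannot be told apart.

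**Figure D1:**
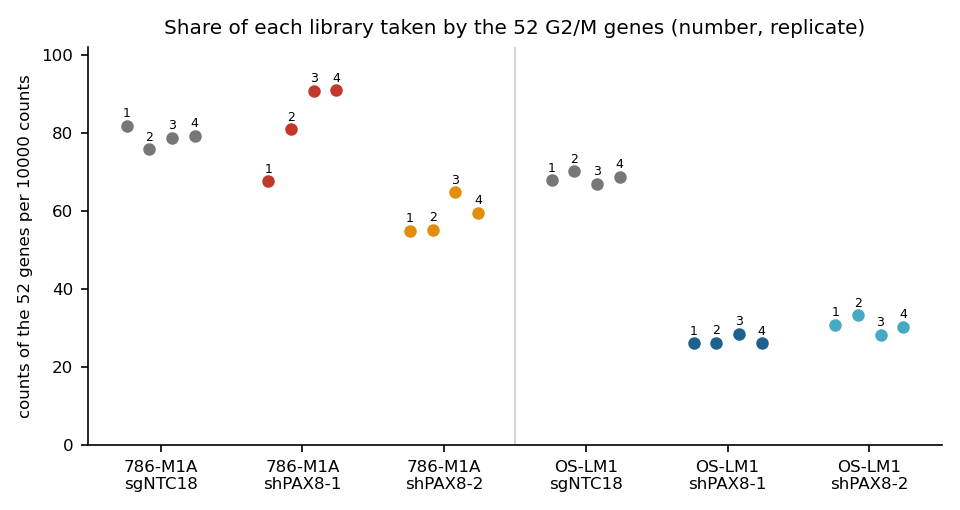
Counts of the 52 G2/M genes per 10000 counts (y axis) in each of the 24 libraries, by group (x axis), with the replicate number above each point. The 4 shPAX8-1 libraries of 786-M1A spread from 67.6 to 90.9, and all 8 shPAX8 libraries of OS-LM1 lie between 26.1 and 33.2, below their 4 controls at 66.9 to 70.1.

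Between the constructs in 786-M1A, 34 of 52 members changed at an adjusted p under 0.05, 32 higher with shPAX8-1 and 2 lower. Of all 14013 genes tested 41.2% were called in this comparison, 21.4% higher and 19.8% lower. The median log2 fold change was 0.56 over the members and -0.01 over all genes. In 20 of the 52 all shPAX8-1 libraries lay above all shPAX8-2 libraries and in 1 below them, where the shares over all genes were 18.5% and 18.6%. The 3 members that rose most were TTK, CDK1 and ANP32E, and the 2 that fell were TUBB4B (-0.43 ± 0.16, adjusted p = 0.048) and CDCA3 (-0.40 ± 0.12, adjusted p = 0.019). With the replicate number as a block, CENPA, CTCF and NCAPD2 also passed (log2 0.34, 0.32 and 0.24, adjusted p = 0.038, 0.044 and 0.044). In that fit 51.8% of all genes were called, and whether the numbers mark pairs is not known.

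In OS-LM1 the same comparison called 23 members, 1 higher and 22 lower with shPAX8-1, against 25.5% of all 14075 genes tested, 13% higher and 12.5% lower. The median log2 fold change was -0.33 over the members and 0.00 over all genes. Libraries did not overlap in 25 members that were lower with shPAX8-1 and in 1 that was higher, against 13.3% and 12.9% of all genes. The members that fell most were CDCA3 (-0.73 ± 0.13), TMPO (-0.71 ± 0.11) and CDCA8 (-0.62 ± 0.11), and CDCA2, a protein phosphatase 1 partner on chromatin, was the member that rose (0.63 ± 0.13, adjusted p = 0.0031).

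The difference between the lines was tested itself, as the shPAX8-1 minus shPAX8-2 difference in OS-LM1 minus that in 786-M1A over the 16 shPAX8 libraries. It was below 0 for 50 of 52 members and called for 37, all of them lower in OS-LM1, where 22.9% of 15101 genes were called and 12.1% in this direction. The median was -0.84 over the members and 0.02 over all genes. The members with the lowest values were CDK1 (-1.63 ± 0.34, adjusted p = 0.0024), TTK (-1.55 ± 0.36, adjusted p = 0.0051) and TOP2A (-1.42 ± 0.26, adjusted p = 0.0010). TUBB4B and CBX5 lay above 0, at 0.17 ± 0.21 and 0.21 ± 0.12 (adjusted p = 0.60 and 0.24).

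The separate comparisons of the lines share no library, and 10 members were called higher with shPAX8-1 in 786-M1A and lower in OS-LM1. These were ANLN, AURKA, BUB1, CDC20, HJURP, HMGB2, KIF23, MKI67, TOP2A and TPX2, that is 19.2% of the members against 1.35% of the 12943 genes tested in both lines. Without replicates 3 and 4 of shPAX8-1 in 786-M1A 4 of these 10 were left (BUB1, CDC20, MKI67 and TOP2A), and without replicates 1 and 2 all 10 were, among 12. Some of the calls also rest on single libraries. CDC20 and HJURP lost their call in 786-M1A without replicate 2, 3 or 4 of shPAX8-1, or without replicate 1 or 2 of shPAX8-2. KIF23 lost its call in 786-M1A without replicate 3 or 4 of shPAX8-1, or without replicate 1, 2 or 4 of shPAX8-2. ANLN lost its call there without replicate 1, 2 or 4 of shPAX8-2. AURKA, HJURP and TOP2A lost theirs in OS-LM1 without replicate 1, 2 or 4 of either construct. HMGB2 lost its call in OS-LM1 without replicate 1 of shPAX8-1 or replicate 4 of shPAX8-2. Disregarding the test, 39 members (75%) lay above 0 in 786-M1A and below 0 in OS-LM1, against 18.7% of all genes. Across genes, which are not independent replicates, the log2 fold changes of the lines had a Spearman correlation of 0.43 over the 52 members and 0.33 over all genes, so that members that rose most in 786-M1A tended to fall least in OS-LM1.

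**Figure D2:**
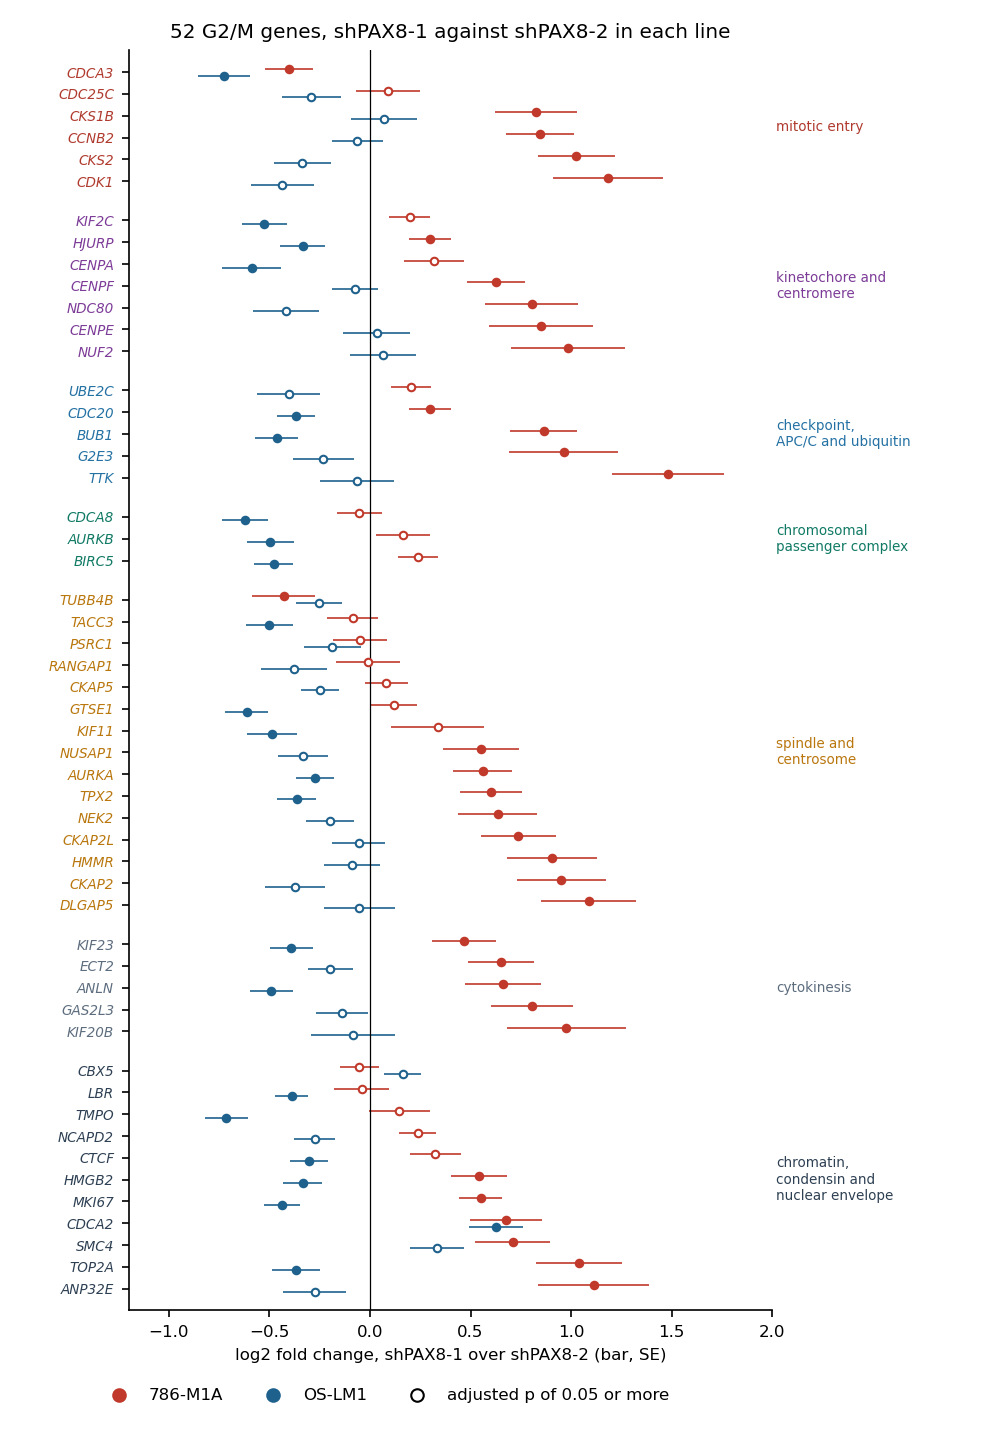
Log2 fold change of shPAX8-1 over shPAX8-2 (x axis, bars are SE) for each of the 52 members (y axis), by role, in 786-M1A (red) and OS-LM1 (blue), with 4 libraries per group; open symbols did not pass an adjusted p of 0.05. Most red points lie to the right of 0 and most blue points to the left. Among the exceptions, CDCA3, TUBB4B and CDCA8 lie to the left in both lines. CDCA2, SMC4, CKS1B, NUF2 and CENPE lie to the right in both.

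In each role group, the values of every library are given for the member with the largest called line difference, so that its line difference is a description. Among the 6 genes of mitotic entry, 4 rose and 1 fell with shPAX8-1 in 786-M1A, and in OS-LM1 1 fell. Without replicates 3 and 4 of shPAX8-1 in 786-M1A only 3 that rose were left, and without replicates 1 and 2 4 rose and 1 fell. CDK1, the kinase that drives cells into mitosis, was at 36.8, 46.0, 85.9 and 90.6 CPM with shPAX8-1 and at 24.2, 23.9, 34.1 and 32.1 CPM with shPAX8-2 in 786-M1A. In OS-LM1 it was at 14.4, 12.6, 15.1 and 13.7 CPM with shPAX8-1 and at 18.1, 26.2, 14.7 and 17.5 CPM with shPAX8-2. The groups did not overlap in 786-M1A, where replicates 3 and 4 of shPAX8-1 were well above replicates 1 and 2, and they overlapped in OS-LM1. The fold change was 2.27 in 786-M1A (log2 1.18 ± 0.27, adjusted p = 0.0067) and 0.739 in OS-LM1 (log2 -0.44 ± 0.16, adjusted p = 0.053), and the line difference was called.

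CKS2 and CKS1B, which bind CDK1 and related kinases, rose by log2 1.03 ± 0.19 and 0.83 ± 0.20 in 786-M1A (adjusted p = 0.0024 and 0.0088), with -0.34 ± 0.14 and 0.07 ± 0.16 in OS-LM1. CCNB2, the cyclin B2 partner of CDK1, rose by 0.85 ± 0.17 in 786-M1A and was at -0.06 ± 0.13 in OS-LM1. CDC25C, the phosphatase that activates CDK1, passed the test in neither line (0.09 ± 0.16 and -0.29 ± 0.15). CDCA3, which helps to degrade the CDK1 inhibitor WEE1, went against the other members in 786-M1A. It was at 51.4, 53.0, 42.2 and 43.9 CPM with shPAX8-1 and at 61.2, 60.3, 61.7 and 68.4 CPM with shPAX8-2 there, and at 19.0, 15.9, 13.1 and 18.8 against 27.3, 25.5, 27.7 and 30.8 CPM in OS-LM1. It was thus lower with shPAX8-1 in both lines without overlap, and its line difference of -0.34 ± 0.17 was not called (adjusted p = 0.17).

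Of the 7 kinetochore and centromere genes, 5 rose in 786-M1A and 3 fell in OS-LM1. Without replicates 3 and 4 of shPAX8-1 in 786-M1A 1 of the 5 was left, and without replicates 1 and 2 5 rose. NDC80 encodes the kinetochore protein that grips microtubules. It was at 13.3, 16.1, 21.2 and 23.3 CPM with shPAX8-1 and at 8.02, 8.20, 14.2 and 12.1 CPM with shPAX8-2 in 786-M1A, and at 4.71, 4.29, 5.26 and 3.87 against 7.001, 6.57, 4.92 and 6.12 CPM in OS-LM1. A single library kept the groups from separating in each line. The fold change was 1.75 in 786-M1A (log2 0.80 ± 0.23, adjusted p = 0.017) and 0.749 in OS-LM1 (log2 -0.42 ± 0.16, adjusted p = 0.075), with a line difference of -1.23 ± 0.29 (adjusted p = 0.0056).

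NUF2, the partner of NDC80, rose by log2 0.99 ± 0.28 in 786-M1A and was at 0.06 ± 0.17 in OS-LM1, with a line difference that did not pass (adjusted p = 0.064). CENPE and CENPF, which help to attach chromosomes, rose by 0.85 ± 0.26 and 0.63 ± 0.15 in 786-M1A and were at 0.03 ± 0.17 and -0.08 ± 0.11 in OS-LM1. HJURP, the chaperone that places the centromeric histone CENPA, rose by 0.30 ± 0.11 and fell by 0.33 in OS-LM1. CENPA itself and KIF2C, a kinesin that takes microtubules apart, fell in OS-LM1 (-0.59 ± 0.15 and -0.52 ± 0.11) and did not pass in 786-M1A (0.32 ± 0.15 and 0.20 ± 0.10). With the GC trend removed KIF2C was called higher in 786-M1A and CENPE lost its call there.

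All 5 genes of the checkpoint, APC/C and ubiquitin group passed the line difference. Without replicates 3 and 4 of shPAX8-1 in 786-M1A 3 did, with G2E3 and UBE2C lost, and without replicates 1 and 2 all 5 did. TTK (MPS1), the kinase that starts the spindle checkpoint, was at 50.7, 67.0, 117.3 and 126.6 CPM with shPAX8-1 and at 27.4, 26.9, 43.2 and 32.0 CPM with shPAX8-2 in 786-M1A. In OS-LM1 it was at 7.58, 6.03, 11.0 and 7.51 CPM with shPAX8-1 and at 7.56, 10.9, 7.26 and 8.29 CPM with shPAX8-2. The 786-M1A groups did not overlap and the OS-LM1 groups were interleaved. It had the largest fold change of the members in 786-M1A, 2.79 (log2 1.48 ± 0.28, adjusted p = 0.0024), and 0.957 in OS-LM1 (adjusted p = 0.83).

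BUB1, the checkpoint kinase at kinetochores, was at 194.5, 232, 322 and 314.5 CPM with shPAX8-1 against 136, 133.5, 170.3 and 144 CPM with shPAX8-2 in 786-M1A, and at 34.5, 34.6, 33.9 and 29.7 against 43.5, 53.9, 43.9 and 43.2 CPM in OS-LM1. The groups separated in both lines and in opposite directions (log2 0.86 ± 0.17 and -0.46 ± 0.11, adjusted p = 0.0027 and 0.0051). CDC20 rose by 0.30 ± 0.10 in 786-M1A and fell by 0.37 in OS-LM1. G2E3, a ubiquitin ligase, rose by 0.96 ± 0.27 in 786-M1A and was at -0.23 ± 0.15 in OS-LM1, and UBE2C passed in neither line (0.20 ± 0.10 and -0.41 ± 0.16). With the GC trend removed all 5 genes of this group rose in 786-M1A, UBE2C included.

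The 3 genes of the chromosomal passenger complex, which corrects faulty attachments and guides cytokinesis, fell in OS-LM1 and were not called in 786-M1A. BIRC5 (survivin) was at 100.3, 113, 104 and 105 CPM with shPAX8-1 and at 88.9, 86.5, 89.7 and 92.6 CPM with shPAX8-2 in 786-M1A, and at 37.3, 42.5, 40.9 and 37.1 against 55.0, 57.6, 57.9 and 50.7 CPM in OS-LM1. The groups separated in both lines, with a log2 fold change of 0.24 ± 0.10 in 786-M1A (adjusted p = 0.070) and -0.48 ± 0.10 in OS-LM1 (adjusted p = 0.0023). The line difference was -0.73 ± 0.12 (adjusted p = 5.0e-04). AURKB, the kinase of the complex, and CDCA8 (borealin) were at 0.16 ± 0.14 and -0.05 ± 0.11 in 786-M1A and at -0.50 ± 0.12 and -0.62 ± 0.11 in OS-LM1. With the GC trend removed 2 of the 3 were called higher in 786-M1A. These were BIRC5 (0.42, adjusted p = 0.0011) and AURKB (0.48, adjusted p = 5.1e-04).

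The spindle and centrosome group was the largest, with 15 genes. In 786-M1A 8 rose and 1 fell, in OS-LM1 5 fell, and 10 passed the line difference. Without replicates 3 and 4 of shPAX8-1 in 786-M1A only 2 rose there, and 5 passed the line difference. Without replicates 1 and 2, 9 rose and 2 fell there, and in the line difference 11 were lower and 1 higher. CKAP2, a microtubule-associated protein of the spindle poles, was at 92.7, 111, 178 and 183 CPM with shPAX8-1 and at 66.6, 60.9, 92.7 and 71.7 CPM with shPAX8-2 in 786-M1A, and at 81.5, 70.4, 79.9 and 72.3 against 93.2, 137, 73.2 and 93.5 CPM in OS-LM1. The groups just separated in 786-M1A (fold change 1.93, log2 0.95 ± 0.22, adjusted p = 0.0070) and overlapped in OS-LM1 (fold change 0.772, adjusted p = 0.080).

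DLGAP5 (HURP), HMMR and CKAP2L, which stabilise spindle microtubules, rose by log2 1.09 ± 0.24, 0.91 ± 0.22 and 0.74 ± 0.19 in 786-M1A and lay between -0.09 and -0.05 in OS-LM1. TPX2 and the kinase it activates, AURKA, rose by 0.60 ± 0.16 and 0.56 ± 0.15 in 786-M1A and fell in OS-LM1 (-0.36 ± 0.10 and -0.27 ± 0.09). NUSAP1 and NEK2, a centrosomal kinase, rose in 786-M1A (0.55 ± 0.19 and 0.63 ± 0.20) and did not pass in OS-LM1.

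KIF11, the motor that pushes spindle poles apart, GTSE1 and TACC3 fell in OS-LM1 (-0.49 ± 0.13, -0.61 ± 0.11 and -0.50 ± 0.12) and did not pass in 786-M1A. PSRC1, RANGAP1 and CKAP5 passed the test in neither line. With the GC trend removed 12 of the 15 genes rose in 786-M1A and 0 fell, with GTSE1 and TACC3 among the 12. TUBB4B was at 333, 354, 221 and 237 CPM with shPAX8-1 against 373, 406, 344 and 418 CPM with shPAX8-2 in 786-M1A, where replicate 2 of shPAX8-1 lay above replicate 3 of shPAX8-2.

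All 5 cytokinesis genes rose in 786-M1A and 2 fell in OS-LM1. Without replicates 3 and 4 of shPAX8-1 none of the 5 calls in 786-M1A was left, and without replicates 1 and 2 all 5 were. With the GC trend removed ECT2, KIF20B and KIF23 lost theirs. ANLN (anillin), a scaffold of the contractile ring, was at 148, 204.5, 269.7 and 266.5 CPM with shPAX8-1 and at 128.8, 124, 175 and 133 CPM with shPAX8-2 in 786-M1A. In OS-LM1 it was at 103, 99.9, 113 and 98.7 CPM with shPAX8-1 and at 144, 178, 130.2 and 134 CPM with shPAX8-2. The OS-LM1 groups did not overlap, and in 786-M1A replicate 1 of shPAX8-1 lay below replicate 3 of shPAX8-2. The fold change was 1.58 in 786-M1A (log2 0.66 ± 0.19, adjusted p = 0.017) and 0.712 in OS-LM1 (log2 -0.49 ± 0.11, adjusted p = 0.0036), with a line difference of -1.16 ± 0.23 (adjusted p = 0.0015).

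KIF23, a motor of the central spindle, rose by log2 0.47 ± 0.16 in 786-M1A and fell by 0.39 in OS-LM1. ECT2, which activates RhoA at the cleavage site, rose by 0.65 ± 0.16 in 786-M1A and was at -0.20 ± 0.11 in OS-LM1. KIF20B and GAS2L3 rose by 0.98 ± 0.29 and 0.80 ± 0.20 in 786-M1A and were at -0.09 ± 0.21 and -0.14 ± 0.13 in OS-LM1, and the line difference of KIF20B did not pass (adjusted p = 0.059).

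Of the 11 genes of chromatin, condensin and the nuclear envelope, 6 rose in 786-M1A, and in OS-LM1 6 fell and 1 rose. Without replicates 3 and 4 of shPAX8-1 in 786-M1A 2 rose there, and without replicates 1 and 2 7 rose. TOP2A, the topoisomerase that untangles sister chromatids, was at 277, 334, 552 and 547 CPM with shPAX8-1 and at 195, 188, 255 and 192.5 CPM with shPAX8-2 in 786-M1A. In OS-LM1 it was at 69.0, 70.9, 89.4 and 69.7 CPM with shPAX8-1 and at 103, 112, 80.0 and 93.1 CPM with shPAX8-2. The 786-M1A groups did not overlap, and in OS-LM1 they overlapped through replicate 3 of each construct. The fold change was 2.06 in 786-M1A (log2 1.04 ± 0.22, adjusted p = 0.0040) and 0.775 in OS-LM1 (log2 -0.37 ± 0.12, adjusted p = 0.036).

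MKI67, which coats mitotic chromosomes and is the antigen of the Ki-67 stain, was at 722, 809.9, 795 and 751.5 CPM with shPAX8-1 and at 538, 539, 579 and 442 CPM with shPAX8-2 in 786-M1A, and at 154.5, 137, 165 and 154 against 199.9, 224, 211 and 196 CPM in OS-LM1. The groups separated in both lines and in opposite directions (log2 0.55 ± 0.11 and -0.44 ± 0.09, adjusted p = 0.0031 and 0.0025). ANP32E, a chaperone of the histone H2A.Z, rose by 1.11 ± 0.27 in 786-M1A and was at -0.27 ± 0.16 in OS-LM1. HMGB2 rose by 0.54 ± 0.14 in 786-M1A and fell by 0.34 in OS-LM1.

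The condensin subunit SMC4 rose in 786-M1A (0.71 ± 0.19) and was also above 0 in OS-LM1 (0.33 ± 0.13, adjusted p = 0.079), whereas NCAPD2 passed in neither line. With the GC trend removed NCAPD2 was called higher in 786-M1A and lower in OS-LM1, and HMGB2 lost its call in 786-M1A. TMPO (lamina-associated polypeptide 2), LBR (lamin B receptor) and CTCF fell in OS-LM1 (-0.71 ± 0.11, -0.39 ± 0.08 and -0.30 ± 0.09) and did not pass in 786-M1A. CDCA2 rose in both lines (0.68 ± 0.18 and 0.63 ± 0.13), and its line difference was -0.06 ± 0.23 (adjusted p = 0.88). CBX5 (HP1 alpha) passed in neither.

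**Figure D3:**
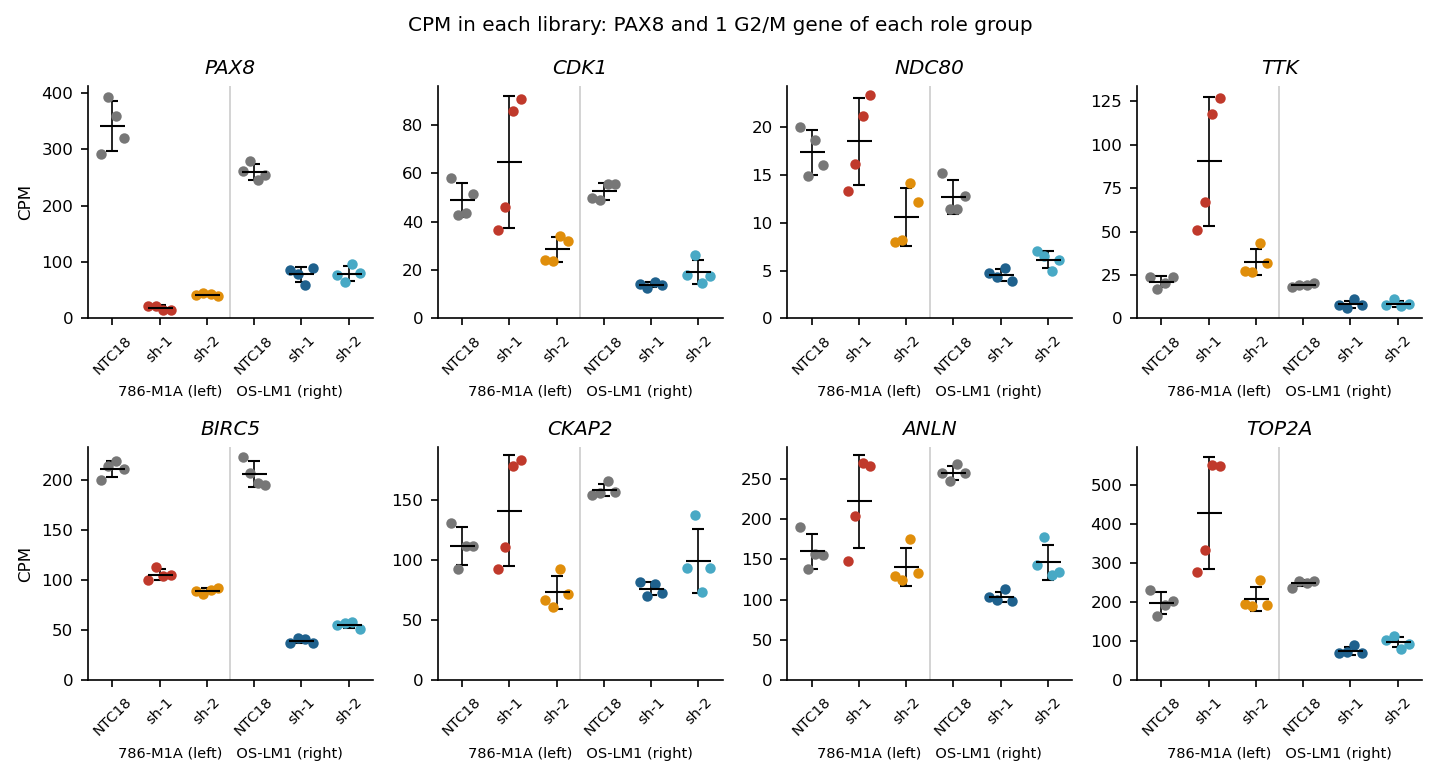
CPM (y axis, from 0) of PAX8 and of the member of each role group with the largest line difference, in each library of the 6 groups (x axis), with the mean and SD of 4 libraries. In 786-M1A the shPAX8-1 points (red) of CDK1, TTK, CKAP2, ANLN and TOP2A fall into a lower and a higher pair, while in OS-LM1 both shPAX8 groups lie below sgNTC18 for all 7 members.

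The size of the construct difference in 786-M1A varied with libraries and with base composition. Without replicates 3 and 4 of shPAX8-1 the comparison called 11 members, all higher, against 23.4% of all genes and 11.3% higher, and the median log2 fold change was 0.33. These 11 were BUB1, CCNB2, CDC20, CDK1, CENPF, CKAP2, CKS2, DLGAP5, MKI67, TOP2A and TTK. Without replicates 1 and 2 it called 37, 34 higher and 3 lower, against 61.7% of all genes, with a median of 0.76. The line difference called 28 members without replicates 3 and 4 (13.2% of all genes, median -0.60) and 45 without replicates 1 and 2 (41.3%, median -1.03).

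Of the genes shown for each role group, the log2 fold change in 786-M1A without replicates 3 and 4 of shPAX8-1 was 0.54 for CDK1, 0.87 for TTK, 0.48 for CKAP2 and 0.56 for TOP2A, all still called, and without replicates 1 and 2 it was 1.64, 1.93, 1.32 and 1.41. For NDC80 and ANLN it was 0.48 and 0.33 without replicates 3 and 4 (adjusted p = 0.12 and 0.15) and 1.09 and 0.94 without replicates 1 and 2. BIRC5 was at 0.26 and 0.23 and was not called in either case. The 2 members that fell, CDCA3 and TUBB4B, were at -0.27 and -0.16 without replicates 3 and 4 and no longer called (adjusted p = 0.11 and 0.32).

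The members' transcripts had a median GC content of 42.2% against 47.7% of all genes tested. Over all genes the log2 fold change between the constructs in 786-M1A had a Spearman correlation with GC content of -0.56, and over the 52 members of -0.75. In OS-LM1 the correlations were -0.21 and -0.42.

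After removing the trend of counts with GC content from each library, 39 members were called in 786-M1A, 36 higher and 3 lower, with a median log2 fold change of 0.33, where 44.1% of all genes were called. In OS-LM1 34 were called, 1 higher and 33 lower, with a median of -0.34, against 33.5% of all genes. The line difference called 42, 41 of them lower, with a median of -0.68, against 29.5% of all genes. CDK1 then rose by 0.64 and TTK by 1.10 in 786-M1A, and CDC20, whose transcript is rich in GC, rose by 0.72 in place of 0.30. TUBB4B was at 0.01 (adjusted p = 0.94) and no longer called, and LBR, CBX5 and CDCA3 were called lower. The members were thus split between the lines in the same directions, with a smaller difference in 786-M1A, and the part of base composition in the difference was not tested.

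**Figure D4:**
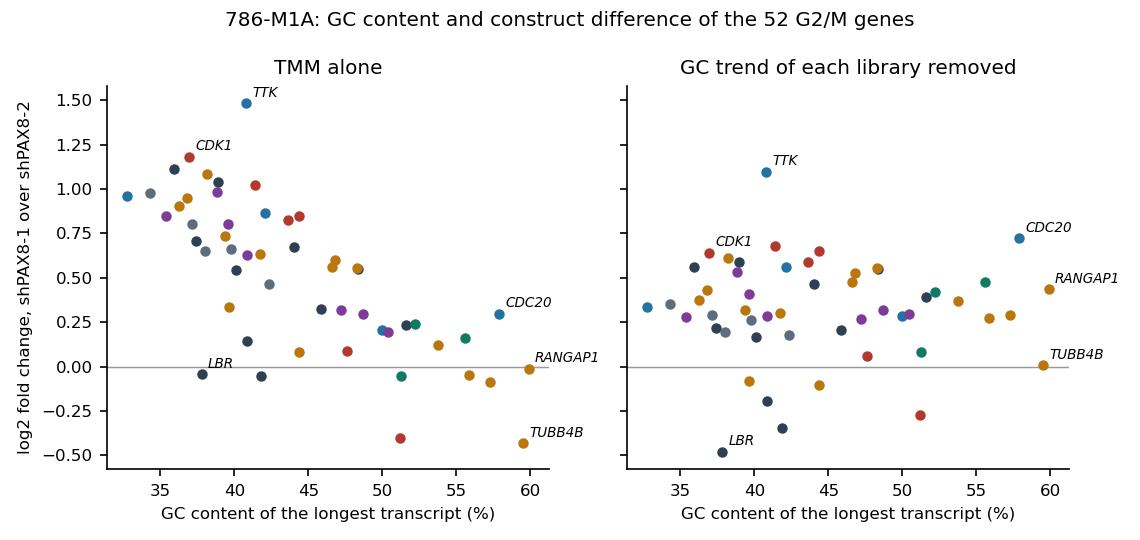
Log2 fold change of shPAX8-1 over shPAX8-2 in 786-M1A (y axis) against the GC content of the longest annotated transcript (x axis, %) for the 52 members, coloured by role, with TMM normalization alone (left) and with the trend over GC removed (right). On the left members of low GC tend to lie higher, with TTK at 1.48 and TUBB4B at -0.43, and on the right most members lie above 0, with CDC20 at 0.72 and LBR at -0.48.

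Against sgNTC18 the lines differed in extent. In OS-LM1 shPAX8-1 called 49 members, 48 lower and 1 higher, where 71.4% of 15049 genes were called and 35.8% lower, and shPAX8-2 also called 48 lower and 1 higher, where 68.4% were called and 34.1% lower. The median log2 fold change of the members was -1.63 with shPAX8-1 and -1.31 with shPAX8-2, against -0.01 for all genes with each. All shPAX8-1 libraries lay below all sgNTC18 libraries in 47 members and all shPAX8-2 libraries in 49, where the shares over all genes were 32.6% and 30.9%. The comparisons of the 2 constructs within a line share the sgNTC18 libraries, and their values are set side by side.

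With shPAX8-1 in OS-LM1 the 3 members that fell most were CDCA3 (-3.04 ± 0.12), CDCA8 (-2.70 ± 0.10) and AURKB (-2.63 ± 0.11). With shPAX8-2 they were CDCA3 (-2.27 ± 0.11), PSRC1 (-2.11 ± 0.13) and AURKB (-2.09 ± 0.11). CDCA3 was at 124 to 144.5 CPM with sgNTC18 and at 13.1 to 30.8 CPM in the 8 shPAX8 libraries. The chromosomal passenger genes had the lowest median of the role groups with shPAX8-1 (-2.63) and with shPAX8-2 (-2.04), and the chromatin group the smallest fall (-0.996 and -0.683). MKI67 fell by 1.64 ± 0.09 and 1.17 ± 0.09, and CDK1 by 1.94 ± 0.14 and 1.47 ± 0.14.

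A few members did not fall in OS-LM1 before the GC trend was removed. LBR was at 139, 143.5, 142 and 138 CPM with shPAX8-1, at 185, 189, 176.5 and 192 CPM with shPAX8-2 and at 121, 122.5, 125 and 119.5 CPM with sgNTC18. Both shPAX8 groups lay above the controls (log2 0.18 ± 0.07 and 0.61 ± 0.07, adjusted p = 0.031 and 3.8e-07). With the GC trend removed the first value was -0.22 and was called lower (adjusted p = 0.014). CBX5 (0.03 ± 0.08 and -0.10 ± 0.08) and G2E3 (-0.18 ± 0.15 and 0.09 ± 0.15) passed with neither construct. CKS1B passed with shPAX8-2 (-0.38 ± 0.16, adjusted p = 0.048) and not with shPAX8-1, and CTCF the other way round. With the GC trend removed all 52 members were called lower with shPAX8-1, where 71.9% of all genes were called and 36% lower. With shPAX8-2 51 were then called lower and 1 higher, where 69% of all genes were called and 35.7% lower.

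In 786-M1A the members called with shPAX8-1 were divided much as all genes were. With shPAX8-1 35 were called, 18 higher and 17 lower, where 70.6% of 14452 genes were called, 36.1% higher and 34.5% lower. The median was 0.08 for the members and 0.03 for all genes. With the GC trend removed the split was 14 higher and 23 lower with a median of -0.15 (75.5% of all genes called). It was 11 higher and 20 lower without replicates 3 and 4 of shPAX8-1 (median -0.17, 66% of all genes), and 25 higher and 15 lower without replicates 1 and 2 (median 0.25, 72.5%). With shPAX8-2 33 were called, 5 higher and 28 lower, where 62.5% were called, 31.5% higher and 30.9% lower, and the median was -0.45.

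TTK rose with each construct in 786-M1A, by 2.11 ± 0.26 and 0.62 ± 0.25, as did CKS1B (1.92 ± 0.19 and 1.09 ± 0.19), CKS2 (1.74 ± 0.18 and 0.71 ± 0.17) and DLGAP5 (1.62 ± 0.22 and 0.53 ± 0.22). With shPAX8-2 the calls of TTK and DLGAP5 were lost without any single sgNTC18 library, and without replicate 3 or replicate 4 of shPAX8-2. They were also lost at an adjusted p under 0.01 and with no filter. CKS1B was at 488, 617, 872 and 931.5 CPM with shPAX8-1, at 322, 372, 484 and 460.5 CPM with shPAX8-2 and at 158 to 216 CPM with sgNTC18. The 3 groups did not overlap, with shPAX8-1 highest, although its lowest library and the highest shPAX8-2 library lay close together. In OS-LM1 the same gene was at 111.5 to 215 CPM with either construct and at 176 to 220 CPM with sgNTC18.

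TUBB4B fell with each construct in 786-M1A (-1.75 ± 0.15 and -1.32 ± 0.14), as did TACC3 (-1.58 ± 0.12 and -1.50 ± 0.12), CDCA8 (-1.30 ± 0.10 and -1.25 ± 0.10), TMPO (-1.24 ± 0.14 and -1.39 ± 0.14) and BIRC5 (-0.98 ± 0.08 and -1.22 ± 0.08). ANP32E fell by 0.67 ± 0.23 with shPAX8-1 and by 1.78 ± 0.24 with shPAX8-2. All 3 chromosomal passenger genes thus fell with each construct in each line, except that with the GC trend removed AURKB was at -0.12 with shPAX8-1 in 786-M1A (adjusted p = 0.14). The cytokinesis genes, in contrast, rose in 3 of 5 cases with shPAX8-1 and were called in none with shPAX8-2 in 786-M1A, and all 5 fell with each construct in OS-LM1. With the GC trend removed ANLN and ECT2, 2 of those 3, were both at 0.01 with shPAX8-1 (adjusted p = 0.91 and 0.88), and neither was called without replicates 3 and 4. For these 5 with shPAX8-2, the unadjusted p in edgeR was under 0.05 for 1, KIF20B (-0.64 ± 0.27, adjusted p = 0.053), which was also the 1 that DESeq2 called.

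**Figure D5:**
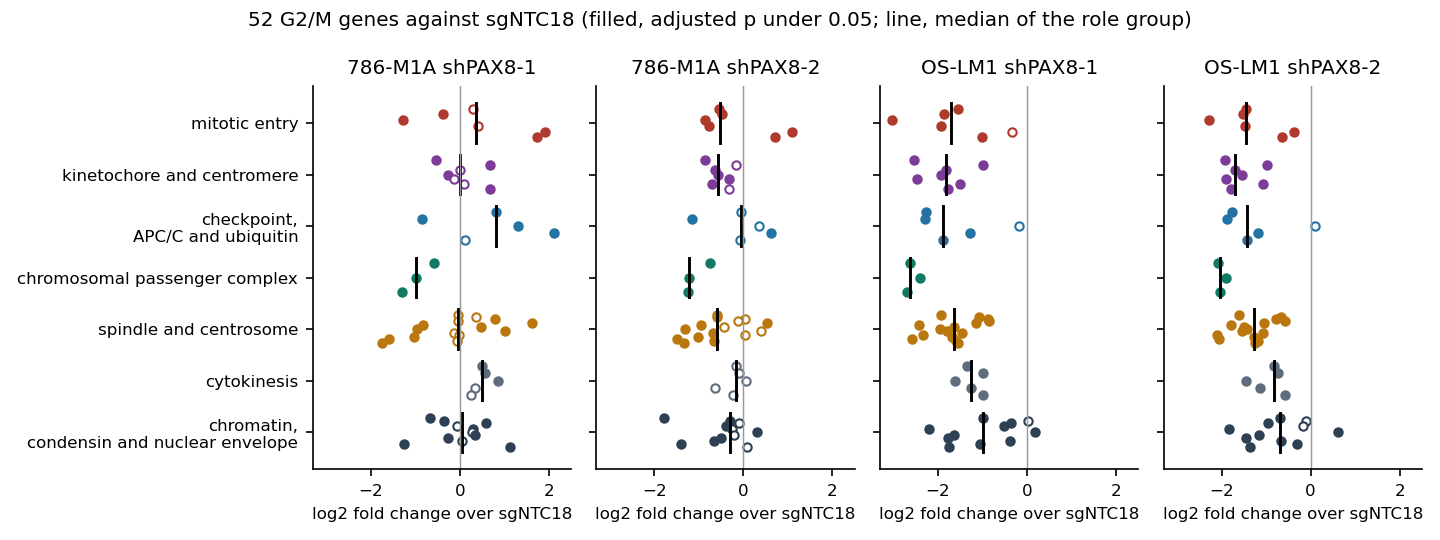
Log2 fold change of the 52 members against sgNTC18 (x axis) by role group (y axis), for each construct in each line, with 4 libraries per group; filled points passed an adjusted p of 0.05 and black lines mark the median of a role group. In OS-LM1 nearly all points lie to the left of 0, with medians from -2.63 to -0.68, whereas in 786-M1A they spread from -1.78 to 2.11.

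Without PAX8 depletion, single members differed in level between the lines, in a smaller share than over all genes, and the median did not differ. Of 52 members 30 were called between the sgNTC18 libraries of OS-LM1 and 786-M1A, 15 higher and 15 lower, where 70.4% of 14968 genes were called, 35.4% higher and 35% lower, and the median was 0.00. HJURP was lower in OS-LM1 (-1.53 ± 0.07), at 60.7 to 67.2 CPM against 177 to 191 CPM, as were TUBB4B (-1.05 ± 0.08) and TACC3 (-1.04 ± 0.09). KIF23 (1.05 ± 0.07), GAS2L3 (0.83 ± 0.09) and ANLN (0.68 ± 0.08) were higher, so that 3 cytokinesis genes led this end of the list. TTK and CDK1 were not called (-0.15 ± 0.11 and 0.09 ± 0.10). With the GC trend removed 10 members were higher and 26 lower, with a median of -0.13, against 72.7% of all genes called.

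Of 130 other genes of G2 and mitosis in 6 lists, 129 were tested. For these and the lists below, the shares over all genes were 21.4% higher and 19.8% lower between the constructs in 786-M1A. They were 13% and 12.5% in OS-LM1, and 10.8% and 12.1% in the line difference. All values of these lists come from the main fit. They are not given without either pair of shPAX8-1 libraries in 786-M1A or with the GC trend removed. How far they depend on these is thus not shown. Between the constructs in 786-M1A 46 rose and 21 fell with shPAX8-1 (median 0.31), and in OS-LM1 2 rose and 44 fell (median -0.29). In the line difference 1 was higher and 55 lower (median -0.60), among them SGOL2, which protects centromeric cohesion (-1.57 ± 0.29), PBK, a mitotic kinase (-1.63 ± 0.36), and CEP55, which acts at abscission (-1.33 ± 0.27).

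In 786-M1A the other kinetochore genes rose in 12 of 33 cases and fell in 3 (median 0.45), among them SGOL2 (1.38 ± 0.24) and SPC24, a subunit of the NDC80 complex (-1.44 ± 0.26). Of 20 genes of the MuvB, FOXM1, B-MYB and E2F list 7 rose and 8 fell (median 0.01), with E2F7, a repressor, at 1.66 ± 0.13 and MYBL2, which encodes B-MYB, at -1.14 ± 0.14. MYBL2 fell in OS-LM1 as well (-1.15 ± 0.11). Among the regulators, PKMYT1, an inhibitory kinase of CDK1, fell in both lines (-1.55 ± 0.30 and -0.83 ± 0.25), and WEE1 fell in OS-LM1 (-1.05 ± 0.12).

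Of the 42 S phase genes that Seurat lists beside the G2/M genes, 1 rose and 21 fell with shPAX8-1 in 786-M1A (median -0.49), with UHRF1 at -1.52 ± 0.20 and MCM5, part of the replicative helicase, at -1.45 ± 0.23. In OS-LM1 33 fell and the other 9 did not pass (median -0.55), with RRM2, a subunit of ribonucleotide reductase, at -1.02 ± 0.09. Their line difference had a median of -0.22, with 5 higher and 4 lower, against -0.84 for the G2/M members. Of 10 genes of CDK inhibitors and quiescence tested, 3 rose and 3 fell in 786-M1A, among them CDKN1A, which encodes p21 (-1.13 ± 0.11), BTG2 (-1.49 ± 0.17) and GADD45A (1.53 ± 0.19). In OS-LM1 BTG2 rose (0.45 ± 0.11), and its line difference was 1.93 ± 0.20.

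Over the 24 libraries, the 5 genes outside the list whose log2 CPM followed the members' mean most closely, among 10837 compared, were SKA1 (Pearson r = 0.983), SHCBP1 (0.982), CCNA2 (0.976), SLC35F2 (0.975) and BUB1B (0.975). SKA1 and BUB1B act at the kinetochore and in the spindle checkpoint, and CCNA2 is cyclin A2. The libraries share lines and constructs, so these values describe a pattern over 6 groups.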

How the data were processed

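The 24 libraries, 4 per group, were grouped by their labels. Per the labels, the authors mapped reads to hg38 with Bowtie2 and RSEM, whose versions were not given in the sources used here, and deposited an expected count and a TPM value per gene and library. Library preparation is given as KAPA stranded mRNA in the labels and as Lexogen in the methods. Expected counts were rounded to whole numbers. TPM values served only to compare levels between genes.

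Genes were filtered with filterByExpr, libraries were scaled by TMM, and edgeR (4.0.16, in R 4.3.3) was used for a robust quasi-likelihood test, with p-values adjusted by the Benjamini-Hochberg method over all genes tested and a threshold of 0.05. Errors, given as SE of log2 fold changes, were derived from the test, as the absolute log2 fold change over the square root of its F statistic. The construct comparison used the 8 shPAX8 libraries of a line, the line difference all 16, and comparisons with sgNTC18 the 12 libraries of a line. Alternatives were DESeq2 (1.42.0), its size factors, no filter, a stricter p, a fold minimum of 0.58 (log2), removal of the GC trend, the replicate number as a block and each library left out. The fits were tested on simulated data.

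The members, their role groups and the other lists were chosen with earlier results of these data known. In each role group, the values of every library are given for the member with the largest absolute line difference among those called with a mean of at least 5 CPM. The 3 highest and 3 lowest called members of a comparison, and at most 2 genes each way of every other list, are named. BUB1, MKI67, CDCA3, TUBB4B, CKS1B, LBR and HJURP were chosen for library values after these were seen. The labels number the replicates without saying what a number shares. In 786-M1A, the deviations of same-numbered shPAX8-1 and shPAX8-2 libraries correlated by 0.508, 0.383, 0.727 and 0.105, all above 0.1. Differently numbered libraries ran from -0.814 to 0.74, with 0.706 for replicate 1 of shPAX8-1 and replicate 2 of shPAX8-2. The values thus do not show that a number marks a pair, and the blocked fit is only an alternative. It used the replicate number in every comparison of both lines, whatever these correlations were. Promoter windows and guides came from RefSeq (GRCh38.p14) and the plasmid oligonucleotides of the study. The libraries of 11634419 to 52059375 counts limit precision through counting error only in low genes.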

Additional observations from a re-analysis of the deposited data

Results flagged for a closer look

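The line difference of shPAX8-1 against shPAX8-2 was past its threshold for PAX8 and for 7 members, 1 of each role group, which were picked for the largest called value, so that their passing is a description. It was -1.63 for CDK1, -1.55 for TTK, -1.42 for TOP2A, -1.33 for CKAP2, -1.23 for NDC80, -1.16 for ANLN and -0.73 for BIRC5, against 1.16 for PAX8 itself, on the log2 scale.

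TOP2A had a library far from the other 3 in 2 groups: replicate 3 of shPAX8-2 in 786-M1A, at 255 CPM, and replicate 3 of shPAX8-1 in OS-LM1, at 89.4 CPM. These were 2 of 48 groups of 4 libraries examined, where chance flags about 1 in 20.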

How the results depend on the processing

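Between the constructs in 786-M1A, 34 members were called, 13 at an adjusted p under 0.01 and 11 without replicates 3 and 4 of shPAX8-1. Over all genes, 5769 of 14013 were called, 2880 at the stricter p, and 3402 of 14511 without that pair. In OS-LM1 23 were called, 14 at an adjusted p under 0.01 and 6 when a log2 change beyond 0.58 in either direction was also required, and between lines in sgNTC18 9 of 30 passed that minimum. Over all genes, 3585 of 14075 were called in OS-LM1, 2041 at the stricter p and 1837 with the minimum. The 6 members were thus near the share over all genes. Between lines 7053 of 14968 genes passed the minimum, a larger share than of the members. With 1 library left out, the counts ran from 23 to 36 for the constructs in 786-M1A, 18 to 27 in OS-LM1, 34 to 43 for the line difference, 30 to 40 and 30 to 33 against sgNTC18 in 786-M1A, 48 to 49 for each construct in OS-LM1 and 28 to 32 between lines. Over all genes, of 14125 to 15504 tested, they ran from 3944 to 7248, 2711 to 4276 and 2607 to 4629 for the first 3. Against sgNTC18 they ran from 9697 to 10473 and 8395 to 8788 in 786-M1A, and from 10306 to 10633 and 9772 to 10287 in OS-LM1. Between lines they ran from 10053 to 10646. With the replicate block, 37 members were called in 786-M1A, 16 in OS-LM1 and 39 in the line difference, against 51.8%, 17.2% and 23.3% of all genes. The members called higher in 786-M1A and lower in OS-LM1 then numbered 5, 4 of them among the 10, and 22 with the GC trend removed, 8 of them among the 10. Same-numbered OS-LM1 libraries did not deviate together (-0.246, -0.398, -0.446 and 0.373). DESeq2 called 37 members in 786-M1A, 28 in OS-LM1 and 42 in the line difference. Over all genes it called 6354 of 14013, 3923 of 14075 and 4059 of 15101.

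Of 1705 values of single genes under an alternative, 1581 kept direction and call, 72 lost the call, 27 gained it and 25 changed sign. With the GC trend removed, without and with the block, these were BIRC5 (0.0291 and 0.0282) and CDK1 (-0.18 and -0.18) between lines in sgNTC18, CDK1 (-0.22 and -0.24), CKAP2 (-0.27 and -0.27) and NDC80 (-0.38 and -0.38) with shPAX8-1 against sgNTC18 in 786-M1A, LBR (-0.22 and -0.22) with shPAX8-1 in OS-LM1, TUBB4B between the constructs in 786-M1A (0.0083 and 0.0074) and PAX8 between them in OS-LM1 (0.0919 and 0.0826). Without replicates 3 and 4 of shPAX8-1 in 786-M1A, CDK1, CKAP2 and NDC80 were at -0.25, -0.14 and -0.245 against sgNTC18, and NDC80 ran from -0.0288 (without replicate 4 of shPAX8-1) to 0.2297 with any 1 library left out. TOP2A with shPAX8-2 in 786-M1A ran from -0.0153 (without its replicate 3) to 0.1676. In OS-LM1, TTK between the constructs ran from -0.248 to 0.0692, above 0 without replicate 2 of shPAX8-1 (0.0363) or of shPAX8-2, and PAX8 ran from -0.1047 to 0.1015, above 0 without replicate 3 of either. The cause was not tested.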
